A study of Mus musculus with 1627 samples.

Results

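Dusp genes encode dual-specificity phosphatases, and Rgs genes encode regulators of G protein signalling. The 9 genes described here, Dusp1, Dusp2, Dusp4, Dusp5, Dusp6, Dusp10, Rgs1, Rgs2 and Rgs16, were chosen by name out of the 23725 genes of the count table, and each has a row in it. The cells were single regulatory T cells (Tregs), CD4+ T cells that carry the transcription factor Foxp3 and restrain immune responses. They came from male mice of the strain B6 Foxp3-Ires-Gfp, aged 8 months, in which a green fluorescent protein marks cells that express Foxp3. All mice had received cardiotoxin, a venom toxin that kills muscle fibres, 4 days earlier, so that the spleen cells too came from injured animals and no uninjured group is described here. Cells with surface TCRb, CD4 and the reporter were sorted from spleen, which was broken up mechanically, and from injured muscle, which was digested with collagenase and dispase. Each cell was profiled with inDrops, a droplet method that copies mRNA from the poly(A) tail and tags every molecule with a unique molecular identifier (UMI). The labels assign the 1627 cells to 3 libraries: 15.9% belong to the 1 spleen library, and 41.4% and 42.7% to the 2 muscle libraries, called muscle 1 and muscle 2 below.

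MAP kinases such as ERK, p38 and JNK carry signals from the T cell receptor to the nucleus, and dual-specificity phosphatases switch them off by removing phosphate from a threonine and a tyrosine of the activation loop. Many of these phosphatases are themselves induced by the kinases, and thereby close a negative feedback loop. Regulators of G protein signalling speed up GTP hydrolysis by G protein alpha subunits and so shorten the signal of chemokine and other G protein-coupled receptors; several are induced within minutes to hours of lymphocyte activation.

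Since the rapid induction of such genes acts through their promoters, the stretches that hold known response elements are shown before the values. RefSeq promoter sequences (GRCm38.p6) were matched for 7 of the 9 genes, all but Rgs1 and Dusp4, and the 250 bases before the RefSeq transcription start were searched on both strands. In Dusp1 and Dusp10 that start lies inside the gene span given further on, since GENCODE also has a longer transcript there, and the stretches of Dusp5 and Dusp10 overlap an exon of an antisense RNA on the other strand. In the lines below, each written 5′ to 3′ on the strand of the gene, capitals mark matches to the cyclic AMP response element TGACGTCA or its core TGACG on either strand, and in Dusp5 also the CArG box, the site of serum response factor.
Dusp1, chr17:26508573-26508672, minus strand: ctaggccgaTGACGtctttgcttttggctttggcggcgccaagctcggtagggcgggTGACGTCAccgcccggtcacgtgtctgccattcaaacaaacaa
Rgs2, chr1:144004250-144004349, minus strand: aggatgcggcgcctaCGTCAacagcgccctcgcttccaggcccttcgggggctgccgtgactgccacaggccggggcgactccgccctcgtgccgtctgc
Dusp5, chr19:53529045-53529104, plus strand: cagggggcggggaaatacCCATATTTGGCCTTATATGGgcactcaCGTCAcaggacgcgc
Dusp10, chr1:184034201-184034300, plus strand: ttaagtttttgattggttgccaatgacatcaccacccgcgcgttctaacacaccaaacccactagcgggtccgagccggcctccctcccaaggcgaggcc

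Among these 7 promoters the full element TGACGTCA occurred in Dusp1 alone, and 1.55% of all 32851 promoters in the table held it in a window of that length. The core TGACG was found 3 times in Dusp1, with a pair of those matches lying inside the full element, 2 times in Rgs2 and 1 time in Dusp5, against 17.8% of all promoters with at least 1 match. The Rgs2 match at 67 to 63 bases before the start lies outside the stretch printed above. Dusp5 held 2 CArG boxes side by side, a number reached by 0.0183% of all promoters. The AP-1 element TGANTCA had no match in these 7 windows and 6.75% of all promoters had one. The Dusp10 stretch is printed because Dusp10 differed most between the tissues, and it held none of these letters. A match or its lack describes the letters of this window only.

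All 9 genes are protein-coding in GENCODE M21 on GRCm38, to which the gene positions below refer. Of the 9, 4 lie on chromosome 1: Rgs2 (chr1:143999338-144004161), Rgs1 (chr1:144242296-144249242), Rgs16 (chr1:153740349-153745468) and Dusp10 (chr1:184013302-184075636), with 238134 bases between Rgs2 and Rgs1. The others are Dusp2 (chr2:127336159-127338376), Dusp4 (chr8:34807297-34819894), Dusp6 (chr10:99263231-99267489), Dusp1 (chr17:26505590-26562128) and Dusp5 (chr19:53529109-53542431). Dusp1, Dusp5, Dusp10 and Rgs16 overlap other annotated genes on the opposite strand, and Dusp1 also on its own strand, and the strand setting of the authors' counting is not given in the sources used here, so that reads of overlapping genes could be counted for these 4.

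The libraries summed to 982570 UMIs in spleen, 1533277 in muscle 1 and 1916496 in muscle 2, with medians of 3541, 1976 and 2488 UMIs per cell. Levels are given as CPM, the UMIs of a gene scaled to a library sum of 1e+06, where 1 UMI was worth 1.02, 0.652 and 0.522 CPM in that order. Molecules were read to different depths, with a median of 42.7, 19.6 and 35.6 mapped reads per UMI. Because there was 1 spleen library and the labels name no animals, no test between tissues was possible and no p-value is given. Intervals in parentheses are exact 95% intervals (Poisson for levels, conditional binomial for folds, binomial for shares of cells) and cover counting error only, not differences between mice. Those of levels and folds take every UMI as independent, so they do not cover the uneven spread of UMIs over cells described below and are too narrow where it is large. Tissue, library and the way cells were released from the tissue cannot be told apart. By the rule used here, a gene was higher in muscle when muscle 1 and muscle 2 each reached 2 times its spleen level, and lower when each was 2-fold or more under it; only genes whose UMIs summed to 50 or more were counted. Foxp3 itself was seen in 22.8% of spleen cells and in 37.7% and 36.1% of muscle cells when each cell was thinned to 1000 UMIs. Of the markers of other cells, the 18 myeloid genes summed to 74.3, 26.7 and 34.4 CPM in the 3 libraries, with 9, 8 and 6 of them at 0. The 10 genes of CD8 T cells and NK cells summed to 119.1, 86.7 and 88.2 CPM, and the 9 endothelial and pericyte genes to 116.02, 64.6 and 62.6 CPM, of which Pecam1 alone gave 116.02, 62.6 and 58.4 CPM. B cell, muscle, fibroblast, mast cell, erythroid and platelet lists each summed to at most 46.96 CPM. These sums are of the order of the levels of Dusp4, Dusp6 and Rgs16, and their part in those levels was not tested beyond leaving out cells with myeloid UMIs. The muscle libraries shared 11 cell barcodes with each other, and spleen shared 1 with muscle 1 and 0 with muscle 2.

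The phosphatase and regulator genes did not shift together between spleen and injured muscle. Of the 9, 8 reached 50 UMIs, and of these 0 were at least 2-fold higher in muscle, 2 were at least 2-fold lower and 6 were neither. Over all 7617 genes measured to that depth, 7.47% were higher and 3.45% lower by the same rule. The 2 lower genes were Dusp10, by about 3-fold, and Dusp6, which rests on few molecules. The median of the mean log2 fold over the muscle libraries was -0.19 for the 8 genes and 0.05 for all genes measured. Together the 9 genes took 0.292% of all UMIs in spleen, 0.239% in muscle 1 and 0.246% in muscle 2.

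**Figure D1:**
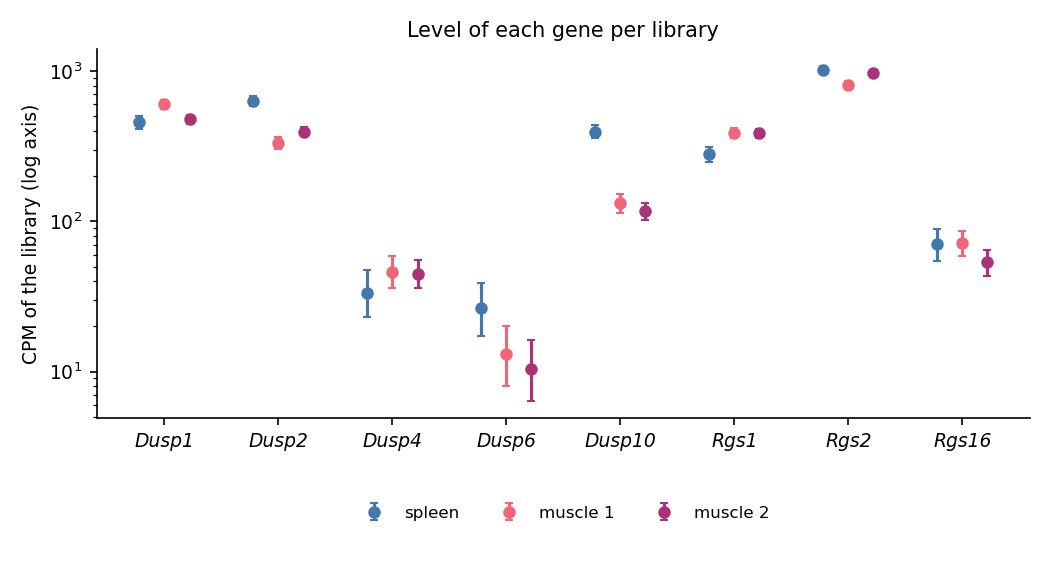
Level of each gene in CPM of the library (log axis) in spleen, muscle 1 and muscle 2, with exact 95% Poisson intervals as bars; Dusp5, with 4, 0 and 1 UMIs, is left out. Dusp10 stood at 394.9 in spleen and at 131.7 and 116.9 in the muscle libraries, while the Rgs1 points of muscle (388.1 and 385.1) lay above that of spleen (279.9).

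Dusp10, also called MKP5, acts mainly on p38 and JNK. From 814 UMIs in all, it stood at 394.9 CPM (356.6 to 436.2) in spleen, 131.7 CPM (114.2 to 151.2) in muscle 1 and 116.9 CPM (102.1 to 133.2) in muscle 2. The muscle libraries lay close together and their intervals did not reach that of spleen. Dusp10 was 2.997-fold lower (2.52 to 3.57) in muscle 1 and 3.38-fold lower (2.86 to 4.00) in muscle 2, and the 2 muscle libraries differed by 1.13-fold (0.927 to 1.37). Ordered by the smaller of the 2 differences, Dusp10 was number 73 from the lowest of 7617 genes.

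Dusp2, also called PAC-1, is a nuclear phosphatase first found in activated T cells. From 1891 UMIs in all, it stood at 632.02 CPM (583.3 to 683.7) in spleen, 332.6 CPM (304.4 to 362.8) in muscle 1 and 396.6 CPM (368.9 to 425.8) in muscle 2. Spleen was thus the highest library, and muscle was 1.90-fold lower (1.69 to 2.14) and 1.59-fold lower (1.43 to 1.77), short of the 2-fold rule in each library.

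Dusp6, a cytoplasmic phosphatase with a strong preference for ERK, was scarce, with 26 UMIs in spleen and 20 in each muscle library, or 26.5 CPM (17.3 to 38.8), 13.04 CPM (7.97 to 20.2) and 10.4 CPM (6.37 to 16.1). Muscle was 2.03-fold lower (1.09 to 3.83) and 2.54-fold lower (1.36 to 4.79). The spleen UMIs came from 13 cells, of which 2 cells held 8 and 5 UMIs. Without the cell with the most UMIs in each library the folds were 1.65-fold and 1.95-fold lower, so that Dusp6 no longer met the rule. The same loss followed when 3 spleen cells and 6 cells of muscle 2 with at least 3 myeloid UMIs were left out, with 1.90-fold and 2.35-fold.

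Dusp1, also called MKP1, is an immediate early gene whose nuclear product acts on p38, JNK and ERK. From 2283 UMIs in all, its levels were 455.9 CPM (414.7 to 500), 600.7 CPM (562.5 to 640.8) and 476.9 CPM (446.5 to 508.9), so that muscle 2 overlapped spleen and muscle 1 lay above both. Muscle 1 was 1.32-fold higher than spleen (1.18 to 1.48), muscle 2 was 1.05-fold higher (0.933 to 1.17), and the 2 muscle libraries differed from each other by 1.26-fold (1.15 to 1.38).

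Dusp4, a nuclear ERK phosphatase, gave 33, 71 and 86 UMIs, or 33.6 CPM (23.1 to 47.2), 46.3 CPM (36.2 to 58.4) and 44.9 CPM (35.9 to 55.4). The intervals of the 3 libraries overlapped. The folds over spleen were 1.38 (0.900 to 2.15) and 1.34 (0.885 to 2.06). Dusp5, another nuclear ERK phosphatase, was hardly seen, with 4 UMIs in 2 spleen cells, 0 UMIs in muscle 1 and 1 UMI in muscle 2. A floor of 3 counts in place of 0 corresponds to 1.96 CPM in muscle 1, and no fold is given.

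Rgs1, which limits chemokine receptor signals in lymphocytes, gave 1608 UMIs in all. Its levels were 279.9 CPM (247.8 to 314.99) in spleen, 388.1 CPM (357.5 to 420.5) in muscle 1 and 385.1 CPM (357.8 to 413.9) in muscle 2. Muscle was higher in each library, by 1.39-fold (1.2 to 1.61) and 1.38-fold (1.196 to 1.59), and the muscle libraries differed by 1.01-fold (0.903 to 1.12).

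Rgs2, a regulator with a preference for Gq, gave the most UMIs of the 9 genes, 1000 in spleen, 1240 in muscle 1 and 1868 in muscle 2. Its levels were 1018 CPM (956 to 1083), 809 CPM (764 to 855) and 974.7 CPM (931 to 1019.9). Muscle 1 was the low one, at 1.26-fold below spleen (1.16 to 1.37), while muscle 2 was at 1.04-fold below spleen (0.966 to 1.13). The difference between the 2 muscle libraries, 1.21-fold (1.12 to 1.30), was about as large as that between muscle and spleen. Rgs16, which acts on Gi and Gq, gave 69 UMIs in spleen and more than that in each muscle library, or 70.2 CPM (54.6 to 88.9), 71.7 CPM (58.96 to 86.5) and 53.2 CPM (43.4 to 64.6), with overlapping intervals. The folds over spleen were 1.02 (0.749 to 1.40) and 0.758 (0.553 to 1.04).

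**Figure D2:**
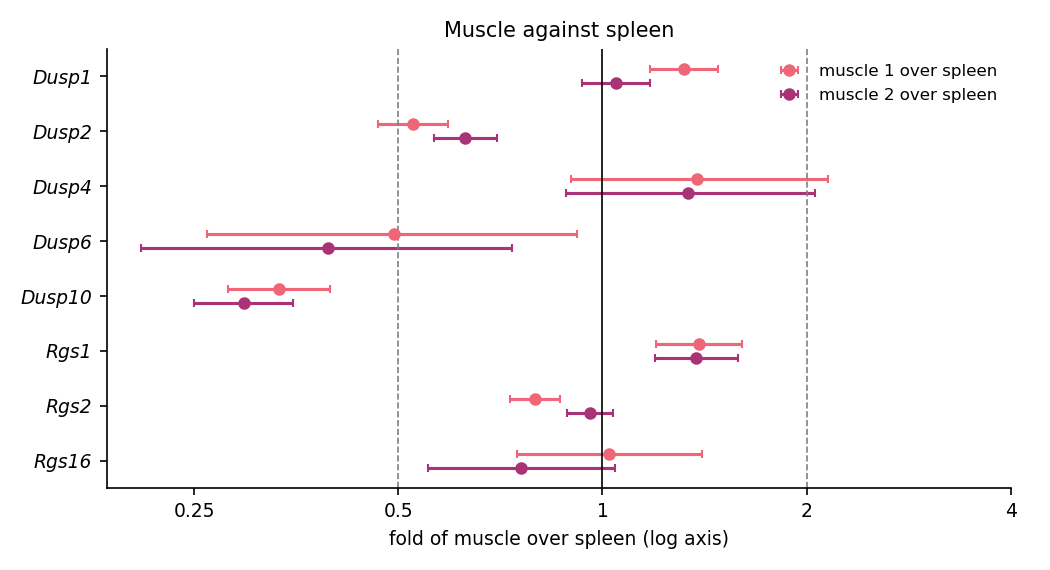
Fold of each muscle library over spleen (log axis) for the 8 genes with at least 50 UMIs, with exact conditional binomial 95% intervals; dashed lines mark 2-fold in either direction. Only Dusp10 and Dusp6 have both points left of the lower dashed line, and the Dusp6 intervals (1.09 to 3.83 and 1.36 to 4.79, as folds lower) are the widest among genes below spleen.

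In bulk sums, fewer cells with a transcript and fewer transcripts per cell look alike. Beside the sums, the share of cells with a UMI was taken after each cell had been thinned to 1000 UMIs, which left out 0, 26 and 7 shallower cells. At that depth the share falls in either case, so it describes detection and does not separate them. Dusp10 was seen in 18.2% of spleen cells (13.7 to 23.4), 8.49% of cells of muscle 1 (6.46 to 10.9) and 7.86% of muscle 2 (5.96 to 10.1). Without thinning the shares were 34.7%, 13.8% and 10.7%. Dusp2 was seen in 29.3% (23.9 to 35.3), 17.4% (14.6 to 20.6) and 19.4% (16.5 to 22.5) of cells, and in 42.5%, 24.6% and 26.7% without thinning. For these genes the spleen share lay above both muscle shares with no overlap of the intervals. Thinned to 750 UMIs, the Dusp2 shares were 20.5% (15.7 to 25.9), 13.7% (11.1 to 16.5) and 17.003% (14.3 to 20.01), and their intervals did overlap, whereas those of Dusp10 did not, at 19.3% (14.7 to 24.6), 5.79% (4.15 to 7.83) and 5.19% (3.66 to 7.11). Thinned to 1500 UMIs, the intervals of spleen and muscle did not overlap for either gene.

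Rgs1 went the other way, with 13.9% of spleen cells (9.93 to 18.7) against 23.6% (20.4 to 27.1) and 22.6% (19.5 to 25.9) in muscle, and 25.9%, 34.9% and 34.2% without thinning. Dusp1 was seen in 26.3% (21.002 to 32.1), 36.6% (32.9 to 40.4) and 30.9% (27.4 to 34.5) of cells, and muscle 2 overlapped both other libraries. Without thinning the 3 Dusp1 shares were 51.4%, 52.7% and 50.4%, a near-equality in which spleen cells had been read more deeply. Rgs2 was even across libraries, with 37.5% (31.5 to 43.7), 37.2% (33.5 to 41.04) and 37.7% (34.1 to 41.4), and 55.2%, 49.3% and 50.6% without thinning.

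Rgs16 was seen in 4.63%, 4.63% and 2.91% of thinned cells, Dusp4 in 2.70%, 4.01% and 4.08%, and Dusp6 in 2.32%, 1.08% and 1.16%, each with overlapping intervals. Dusp5 was seen in 1 spleen cell and in 0 cells of muscle 1 and 0 of muscle 2, which at 3 counts allows shares of up to 0.463% and 0.437% of thinned cells with a UMI and says less of how many cells express the gene. As a gauge of free RNA, the macrophage gene Lyz2 was seen in 0%, 0% and 0.291% of thinned cells and the B cell gene Cd79a in 0% of each library. Lyz2 does not stand for the whole myeloid list. In spleen, muscle 1 and muscle 2, C1qa stood at 18.3, 0 and 1.04 CPM and Cd68 at 15.3, 0 and 0 CPM. Lyz1 went the other way, at 1.02, 5.87 and 6.78 CPM.

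**Figure D3:**
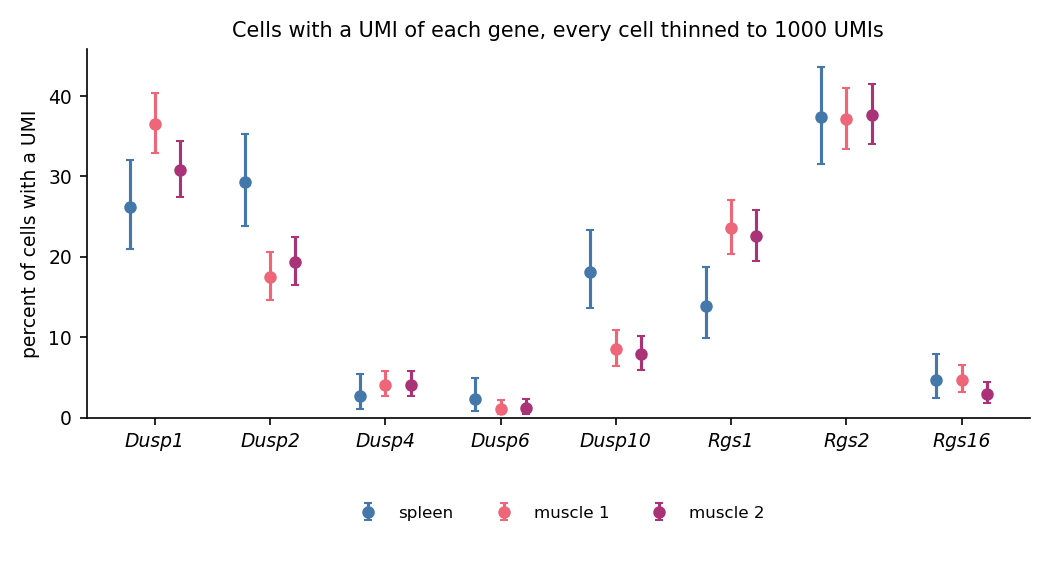
Percent of cells with a UMI of each gene after every cell was thinned to 1000 UMIs, per library, with exact binomial 95% intervals. Dusp2 (29.3% against 17.4% and 19.4%) and Dusp10 (18.2% against 8.49% and 7.86%) were seen in a larger share of spleen cells, Rgs1 (13.9% against 23.6% and 22.6%) in a larger share of muscle cells, and Rgs2 in nearly equal shares.

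The UMIs of the better measured genes were spread over cells less evenly than at random. In the thinned cells the ratio of variance to mean of the Rgs2 UMIs, which is 1 for counts spread at random, was 3.58 in spleen, 3.21 in muscle 1 and 3.95 in muscle 2. For Dusp10 it was 3.22, 2.11 and 2.13, and for Dusp1 2.20, 2.25 and 2.30. Among the scarce genes, the ratio for Dusp4 was 1.77, 1.28 and 1.42, and for Dusp6, from 6 to 8 cells a library, 2.97, 1.59 and 0.990. A thinned cell showed on average 1.35 of the 9 genes in spleen, 1.33 in muscle 1 and 1.27 in muscle 2. None of the 9 was seen in 25.9%, 23.6% and 24.3% of cells, and 5 or more were seen in 0%, 0.309% and 0.146%.

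At least 2 of the 9 genes were seen in 38.996% of the thinned cells of spleen, 39.8% of muscle 1 and 36.4% of muscle 2, but no pair of them went together closely in muscle. The phi coefficient (a correlation of presence and absence, near 0 when genes are seen independently) reached 0.1 in both muscle libraries for 0 of the 28 pairs of the 8 genes with at least 50 UMIs, against 0.0597% of all pairs of genes measured to that depth, so that a count of 0 is near the background. Rgs1 and Rgs2 had phi of 0.10 in spleen, 0.07 in muscle 1 and 0.10 in muscle 2. Rgs2 was seen in 43.1% of the cells of muscle 1 that showed Rgs1 and in 35.4% of those that did not, and in 46.5% and 35.2% in muscle 2. Dusp1 and Dusp2 had phi of 0.19 in spleen, where Dusp2 was seen in 44.1% of the cells with Dusp1 and 24.1% of the others, but 0.00 and 0.06 in the muscle libraries. These are descriptions over the cells of each library, at counts too sparse to read a weak value.

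To describe the state of the cells that carried each gene, all cells were clustered on their other genes, with the 9 genes left out, into 8 clusters. A cluster was named only where at least 3 markers of a type stood among its 10 leading genes. Cluster 1 was cycling-like (12.4% of all cells, led by Ccnb2, Ipo4 and Cdca8), cluster 3 interferon response-like (11.2%, led by Ifit3 and Mx1), cluster 7 immediate early-like (15.7%, led by Egr1, Fosb and Fos) and cluster 8 resting Treg-like (14.9%, with Tcf7, Evl, Itm2a and Bach2 among its leading genes). The other clusters stayed unnamed. No doublet caller was run, and 0, 12 and 7 cells above 3 times the median UMI count of their library stayed in.

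Cluster 8 held 74.9% of the spleen cells, all but 65 of them, 26 cells of muscle 1 (3.86%) and 23 of muscle 2 (3.31%). As most of its cells came from the spleen library, a cell state and that library cannot be fully told apart in it. Dusp10 was unevenly spread over this boundary. In spleen it stood at 503.1 CPM (451.3 to 559.3) inside cluster 8 and at 149.6 CPM (109.1 to 200.2) in the remaining 65 cells, a 3.36-fold difference (2.46 to 4.70). In muscle 1 it stood at 305.4 CPM (166.98 to 512.5) inside, from 14 UMIs, and 126.4 CPM (108.97 to 145.8) outside. In muscle 2 it stood at 110.7 CPM (35.9 to 258.2) inside, from 5 UMIs, and 117.03 CPM (102.04 to 133.6) outside. The highest of these levels was thus that of the spleen cells in cluster 8. In the few muscle cells of the cluster the level was the higher point in muscle 1 but not in muscle 2, with intervals too wide to place it. The muscle cells outside cluster 8 were not evenly low. In the unnamed cluster 5 Dusp10 stood at 193.1 CPM (137.3 to 264.01) in muscle 1 and 290.3 CPM (220.4 to 375.3) in muscle 2. Its lowest muscle levels were 68.3 CPM in cluster 4 of muscle 1 and 33.7 CPM in cluster 1 of muscle 2.

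Outside cluster 8, the Dusp10 levels of 149.6, 126.4 and 117.03 CPM had overlapping intervals, and muscle was 1.18-fold lower (0.835 to 1.65) and 1.28-fold lower (0.906 to 1.77) than spleen. Counted over those cells alone, 0 of the 8 genes were at least 2-fold lower, against 5.82% of all genes, and 1 was higher, against 11% of all genes, a calculation added after the values were seen. The median depth of spleen cells was 3330 UMIs inside and 4447 outside the cluster. With a coarser clustering (Leiden resolution 0.5) Dusp10 stood in spleen at 493.3 CPM inside and 119.8 CPM outside, and with a finer one (1.2) at 547.3 and 162.04 CPM. The few muscle cells inside moved more: in muscle 1 the level inside was 275.05 CPM with the coarser and 547.95 CPM with the finer clustering (9 UMIs in 11 cells), and in muscle 2 it was 149.6 and 61.4 CPM (10 UMIs and 1 UMI).

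Dusp2 did not follow that boundary in spleen, with 646.9 CPM inside cluster 8 and 598.3 CPM outside (1.08-fold, 0.907 to 1.29). Among cells outside it, Dusp2 stayed lower in muscle, by 1.77-fold (1.49 to 2.11) and 1.52-fold (1.29 to 1.79). Dusp1 was lower inside than outside the cluster in spleen, at 381.4 CPM (336.4 to 430.7) against 624.9 CPM (538.8 to 721). Outside the cluster the Dusp1 level of spleen was level with that of muscle 1 (607.1 CPM) and 1.31-fold above (1.11 to 1.53) that of muscle 2 (478.8 CPM), so the direction of the mean difference turned, from 0.23 over all cells to -0.21 on the log2 scale.

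Rgs16 was the gene that became higher in muscle when cluster 8 was set aside. In spleen it gave 61 UMIs inside (89.5 CPM, 68.4 to 114.9) and 8 UMIs outside (26.6 CPM, 11.5 to 52.4). In muscle it gave 0 UMIs in the 26 and 23 cells inside, with upper limits of 80.5 and 81.6 CPM. Outside it stood at 73.95 CPM and 54.5 CPM, below those limits, so that inside and outside cannot be ordered in muscle. Outside the cluster muscle was 2.78-fold (1.36 to 6.60) and 2.05-fold (1.002 to 4.88) higher. This rested on the 8 spleen UMIs, seen in 6.15% of 65 cells, and on where the cluster ended. With the finer clustering the spleen level outside was 64.3 CPM against 72.5 and 53.7 CPM in muscle. Rgs1 and Rgs2 changed less across the boundary in spleen, with 266.96 and 309.2 CPM for Rgs1 and 1050 and 944 CPM for Rgs2.

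**Figure D4:**
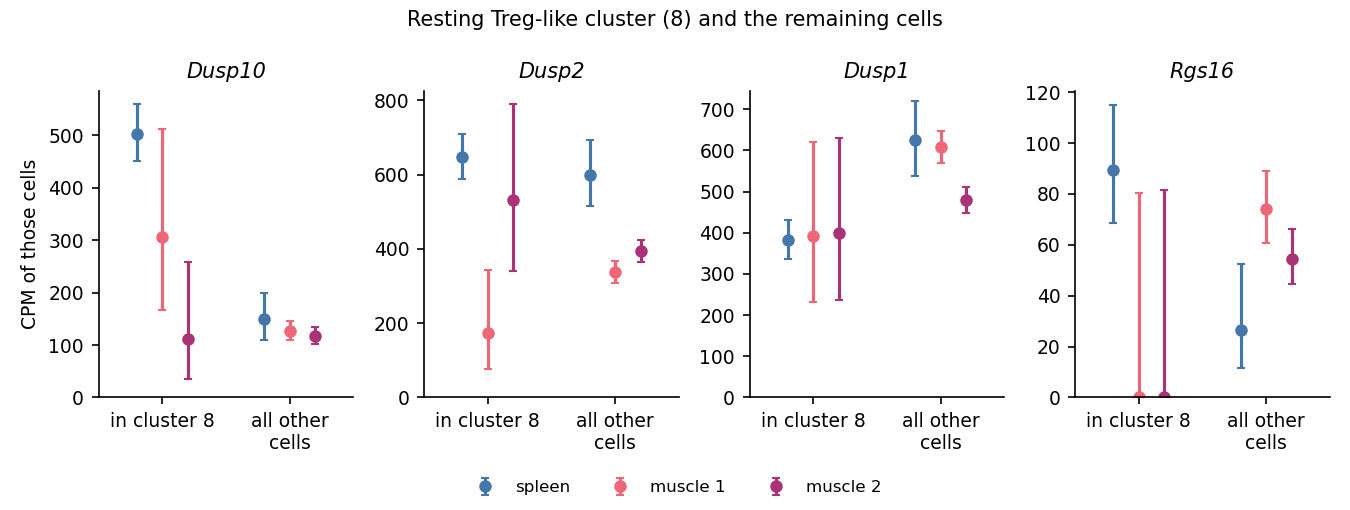
Level in CPM of the cells concerned, inside the resting Treg-like cluster 8 and in all other cells, for Dusp10, Dusp2, Dusp1 and Rgs16 in the 3 libraries, with exact Poisson 95% intervals. For Dusp10 the 503.1 of spleen cells inside the cluster stands above the 149.6, 126.4 and 117.03 of the other cells, and for Dusp2 spleen (598.3) stays above muscle (337.5 and 393.3) outside the cluster.

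Within muscle, the CPM levels of Dusp1 and Rgs2 were highest in the immediate early-like cluster 7. It held 17.4% of the cells of muscle 1, 19.5% of those of muscle 2 and 4 spleen cells. Dusp1 stood at 1072 CPM in cluster 7 of muscle 1 against 525.9 CPM in its other cells, 2.04-fold higher (1.75 to 2.37), and at 893 against 399.3 CPM in muscle 2, 2.24-fold higher (1.93 to 2.58). In muscle 1 the unnamed cluster 2 came near it, with Dusp1 at 893.7 CPM (773.3 to 1028) against 936.3 to 1221 CPM as the interval of cluster 7. In muscle 2 cluster 2 stood at 525.6 CPM. Rgs2 stood at 1310 against 729 CPM (1.80-fold, 1.57 to 2.06) and at 1534 against 870 CPM (1.76-fold, 1.58 to 1.96). Against the pooled other cells Rgs16 was also higher in cluster 7, by 1.67-fold (1.004 to 2.66) and 2.13-fold (1.34 to 3.32). By single clusters it did not peak there in muscle 1, with 167.9 CPM (118.2 to 231.4) in cluster 2 against 109.6 CPM (69.45 to 164.4). In muscle 2 cluster 1 was level with cluster 7, at 96.4 and 96.3 CPM. Rgs16 was seen in 6.84% and 6.67% of the cells of cluster 7. Against the pooled other cells, Dusp2 (1.14-fold and 1.18-fold) and Dusp10 (1.23-fold and 1.03-fold) had intervals that spanned 1 in both libraries.

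Rgs1 followed another order. Among the larger muscle clusters its lowest CPM points were in the cycling-like cluster 1, at 228.2 CPM (183.5 to 280.5) and 224.02 CPM (180.8 to 274.4). The intervals of cluster 2 overlapped these, at 276.7 CPM (211.7 to 355.5) and 275.7 CPM (223.3 to 336.7). By unthinned share of cells Rgs1 was not lowest in cluster 1, with 32.7% and 34.04% against 22.3% and 30.6% in cluster 2. These shares are not at 1 depth, as cells of cluster 1 had a median of 1.79 times their library median UMI count. In the interferon response-like cluster 3 Rgs1 stood at 615.8 CPM (517.05 to 728.03) and 452.4 CPM (371.1 to 546.2). Its level in cluster 7 differed between the muscle libraries, 423.9 CPM in muscle 1 and 610.9 CPM in muscle 2. Rgs16 was close to its floor in the unnamed cluster 5, with 2 UMIs and 1 UMI, or 9.90 and 5.005 CPM. In muscle 2 it was also near the floor in clusters 3, 4 and 6, with 3, 4 and 1 UMIs, or 12.6, 13.5 and 13.8 CPM. Of the 8 genes with at least 50 UMIs, 7 differed by at least 2-fold between the highest and the lowest cluster of at least 100 cells, over all libraries, as did 74.4% of all genes measured to that depth. With the coarser clustering it was 4 of the 8 against 46.9% of all genes, and with the finer one 7 of the 8 against 83.3%. Among muscle cells alone, a count added after the values were seen, it was 6 of the 8, all but Dusp2 and Dusp4, against 65.2% of all genes. Such differences were thus common among genes at large. Clusters group cells of 1 library and are no replicates, so these are descriptions.

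**Figure D5:**
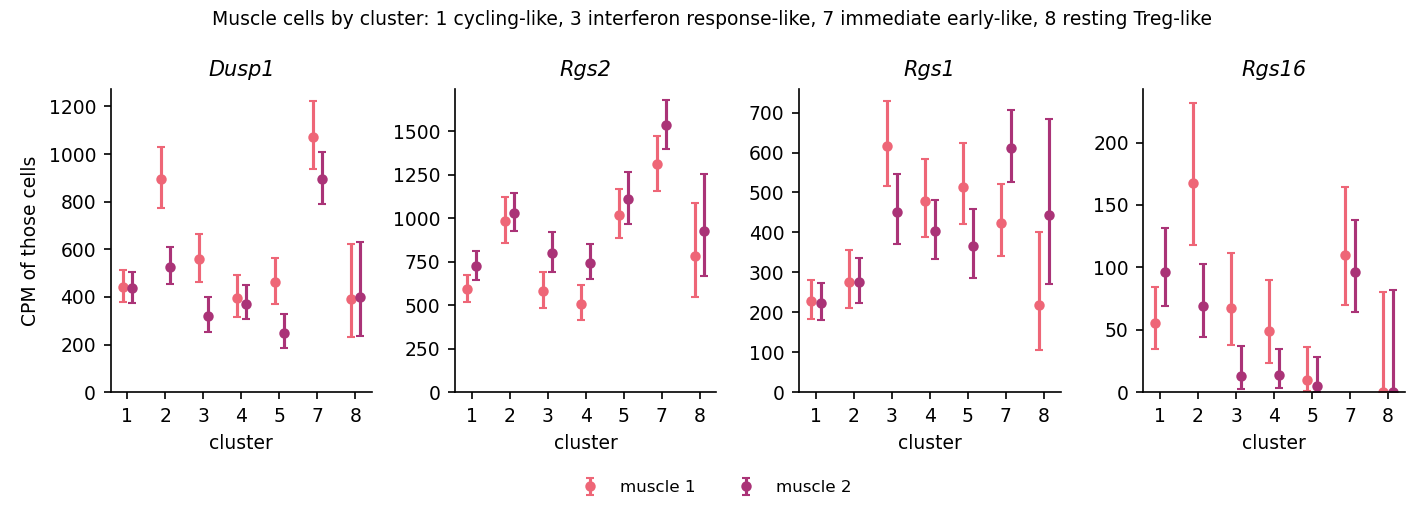
Level in CPM of the cells of each cluster with at least 20 cells in both muscle libraries, for Dusp1, Rgs2, Rgs1 and Rgs16, with exact Poisson 95% intervals. Dusp1 (1072 and 893) and Rgs2 (1310 and 1534) peak in the immediate early-like cluster 7, and Rgs1 is lowest of the larger clusters in the cycling-like cluster 1 (228.2 and 224.02).

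Cell by cell, the genes most like each member were then sought among 2971 genes with at least 200 UMIs, by Pearson's r over the thinned cells of each library, naming up to 3 whose r was at least 0.1 in both muscle libraries. Dusp1 was most like Fos, a subunit of the AP-1 transcription factor (r of 0.05 in spleen, 0.24 in muscle 1 and 0.31 in muscle 2), followed by Zfp36, an mRNA decay factor (0.14, 0.24 and 0.21), and Fosb, another AP-1 subunit (0.07, 0.18 and 0.22). Rgs2 was most like Dusp1 (0.08, 0.15 and 0.12), then Fosb (-0.06, 0.12 and 0.11) and Tnfaip3, an inhibitor of NF-kB signals (0.11, 0.14 and 0.10). Dusp2 had 1 such gene, Nfkbia (0.03, 0.11 and 0.13), which encodes an inhibitor of NF-kB. Rgs16 had 2, Nr4a1, an immediate early nuclear receptor (-0.01, 0.16 and 0.11), and Bclaf1 (-0.05, 0.10 and 0.13). Dusp10 and Rgs1 had 0. The cells of a library share its depth and handling, and at these sparse counts only the values of Dusp1 stand clear of the cutoff.

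The other genes of these pathways, from lists drawn up for this purpose, were set beside the 9 by the same rule, and the median log2 fold of a list can be read against 0.05 for all genes. Of the other Dusp genes 7 were measured and 0 were higher or lower by the rule (median log2 fold -0.10), with Dusp11, an RNA phosphatase, at 185.2, 155.2 and 142.97 CPM and Dusp14 at 44.8, 30.7 and 29.2 CPM. Of the other Rgs genes 5 were measured and 0 were higher or lower (median -0.40), with Rgs10 at 217.8, 155.9 and 175.8 CPM and Rgs14 at 86.5, 108.9 and 115.8 CPM. Of 9 measured inhibitors of Ras and ERK, such as the sprouty proteins, 1 was higher and 0 lower (median -0.45): Dok1, an adaptor that recruits a Ras inhibitor, at 7.12, 50.2 and 46.4 CPM (7.05-fold, 3.26 to 18.1, and 6.52-fold, 3.04 to 16.7).

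Of 36 measured genes of the MAP kinase cascade, which the phosphatases act on, 2 were higher and 1 was lower (median -0.01). Mapkapk3, a kinase downstream of p38, stood at 50.9, 148.7 and 141.4 CPM, and Map2k1, the kinase that activates ERK, at 51.9, 117.4 and 136.7 CPM. Map2k6, a kinase that activates p38, was lower, at 26.5, 9.13 and 7.31 CPM. Without ribosomal protein genes in the totals, 2 genes were lower.

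Immediate early genes, induced along with Dusp1 in many cells, had 4 higher and 2 lower among 21 measured, and a median log2 fold of 0.59. Fosb stood at 75.3, 606.5 and 555.7 CPM (8.05-fold, 6.35 to 10.4, and 7.38-fold, 5.83 to 9.47) and Jund, an AP-1 subunit, at 534.3, 1739 and 1585 CPM. Egr2 was lower, at 56.99, 16.96 and 13.04 CPM, as was Nr4a2, at 230, 61.3 and 72.5 CPM. Fos, the gene most like Dusp1, stood at 228.99, 448.7 and 553.1 CPM and did not pass the rule in muscle 1, where Dusp1 itself was 1.32-fold higher. Genes known to respond to enzymatic digestion, which the muscle alone underwent, had 3 higher and 2 lower of 28 measured, a median log2 fold of 0.18 and summed levels of 11694, 14396 and 13831 CPM. Fos, Fosb, Zfp36 and Nr4a1 are in that list too. Its 3 higher genes were Fosb, Zfp36 and Nr4a1, all of them among the 4 higher immediate early genes, and its 2 lower genes were heat shock genes. The part of digestion in the Dusp1 and Rgs2 levels was not tested.

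On the G protein side, 3 of 15 measured subunit genes were higher and 1 was lower (median log2 fold 0.47). Gna15, an alpha subunit of the Gq class, stood at 24.4 CPM in spleen and 122.6 CPM in muscle 2, and was 4.30-fold (2.79 to 6.91) higher in muscle 1 and 5.02-fold (3.29 to 7.99) in muscle 2. Gng2, a gamma subunit, stood at 58.01, 179.4 and 200.9 CPM, and Gna11, also of the Gq class, at 5.09, 14.4 and 15.7 CPM. Gng12 was lower, at 49.9, 20.2 and 24.002 CPM. Of 27 measured receptors that signal through G proteins, 11 were higher and 4 lower (median 0.14), which without ribosomal protein genes in the totals became 9 and 4. The chemokine receptor Ccr1 (1.02, 68.5 and 42.8 CPM) and the leukotriene receptor Ltb4r1 (11.2, 95.9 and 132.5 CPM) were among the higher, and Gpr83 (59.03, 2.61 and 3.65 CPM) among the lower. Across the same libraries the 3 Rgs genes described here stayed between 0.758 and 1.39 times the spleen level.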

How the data were processed

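The authors deposited unnormalized UMI counts for every gene in every cell, and per the labels each cell belongs to 1 of 3 libraries. The submitters' processing notes name TopHat2, SAMtools and mm10; how genes were annotated and cells filtered is not stated in the sources used here. The 9 genes, the gene lists and the alternatives were chosen with earlier results of these data known. The named genes are the 9, from each pathway list up to 4 genes past the 2-fold rule (else the 2 with most UMIs), and up to 3 genes most like each member. 1 gene that this rule names is not reported here. Members with at least 200 muscle UMIs were compared for likeness, on log(1 + count). All cells were kept and summed per library, and 3 counts stood in for a count of 0 in the rule. The rule and intervals were tested on simulated data. Thinning was without replacement (seed 1). Clustering used genes in at least 3 cells, 10000 counts per cell, log values, 1500 variable genes, 20 components, 15 neighbours and Leiden resolution 0.8. Of the table's symbols 96.2% occur in GENCODE M21. Scaling factors came from edgeR 4.0.16 and DESeq2 1.42.0 in R 4.3.3, which ran no tests; clusters came from scanpy 1.11.5 with igraph 0.11.9, figures from matplotlib 3.10.9 and the rest from Python 3.11.15 with scipy 1.17.1, pandas 2.3.3 and numpy 2.4.6.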

Additional observations from a re-analysis of the deposited data

How the results depend on the processing

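The number of genes at least 2-fold lower in both muscle libraries was 2, against 3.45% of all genes. It stayed 2 with DESeq2 size factors, TMM factors, thinned cells or totals that left out ribosomal protein genes, against 3.44% to 5.17% of all genes. It was 3 with a fold of 1.5, which added Dusp2, against 10.8% of all genes. With no UMI minimum it was 3 of 9, which added Dusp5, against 7.71%. It was 1, with Dusp10 alone, when each cell had equal weight (no share over all genes was taken) and without cells above 3 times the median UMI count (against 3.57% of all genes). With at least 200 UMIs it was 1 of 6, again Dusp10, against 1.82%. It was also 1 in a pair of alternatives chosen after seeing the data. These were without cells with at least 3 myeloid UMIs (against 3.45%) and without the cell with the most UMIs of the gene (no share was taken). It was 0 with a fold of 3, against 0.945% of all genes. It was also 0 outside the resting Treg-like cluster (chosen after seeing the data), against 5.82%, and there the number of higher genes rose from 0 to 1, against 11%. Leaving out muscle replicate 1 or muscle replicate 2 gave 2 lower and 0 higher genes each time, against 6.96% and 6.89% of all genes lower and 10.9% and 10.3% higher. Pairs of genes with phi of at least 0.1 in both muscle libraries numbered 0, against 0.0597% of all pairs, and 1 (Rgs1 and Rgs2) without thinning, where no share was taken. The number of genes that differed 2-fold between clusters was 7, against 74.4% of all genes, and 4 at Leiden resolution 0.5, against 46.9%. The mean log2 fold of Dusp10 ranged from -1.88 to -0.30 over 12 alternatives and kept its sign, as did those of Dusp2, Dusp4, Dusp6, Rgs1 and Rgs2; the sign turned in 1 for Dusp1 and 2 for Rgs16. The 4 to 33 spleen UMIs of Dusp5, Dusp6 and Dusp4 limit what can be said of them. No paired analysis was possible because each library is 1 sample and the numbers in the labels only name its cells.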

Other observations

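Other inhibitors of T cell receptor and cytokine signals, which share with the phosphatases the role of feedback, numbered 30 measured genes, of which 4 were higher and 0 lower in muscle by the 2-fold rule (median log2 fold 0.03), and 3 were higher under DESeq2 size factors or without ribosomal protein genes in the totals. Socs2, which restrains cytokine receptors, stood at 59.03, 214.6 and 178.97 CPM in spleen, muscle 1 and muscle 2, and Cish, of the same family, at 193.4, 574.6 and 494.7 CPM. Ctla4, an inhibitory receptor of Tregs, stood at 864.1, 2771 and 2004 CPM. Nfkbia stood at 1633, 3359 and 3296 CPM. Its folds over spleen were 2.06 (1.94 to 2.18) and 2.02 (1.91 to 2.13), and it passed the 2-fold rule by a narrow margin that other scalings removed.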
